A study of Homo sapiens with 8 samples.

Results

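The mitochondrial carrier family, solute carrier family 25, was followed through 8 arrays of DU145 prostate cancer cells treated with FGF19, TNFα or both. Members were every probeset whose only gene symbol in the platform annotation began with SLC25A or was MTCH1 or MTCH2, without pseudogenes, and each gene was represented by its brightest probeset. This gave 49 genes, 48 of them protein-coding and 1 the antisense RNA SLC25A5-AS1, from 52 of the 33297 probesets on the array. SLC25A6 was not among the probesets with 1 symbol and was not analysed here. DU145 is an established human prostate carcinoma line that grows without androgen. All cells had been moved to serum-free medium the day before treatment, and there were 4 groups of 2 arrays. According to the sample labels, FGF19 + TNFα cells received 50 ng/ml FGF19 with 100 µg/ml heparin for 10 min before 50 ng/ml TNFα was added for another 90 min. FGF19 cells received the same FGF19 and heparin for 100 min, TNFα cells received 50 ng/ml TNFα for 90 min, and Mock cells were left untreated. The study's methods give lower concentrations of heparin and TNFα than the labels do. Heparin, which helps FGFs to bind their receptors, was present only in the groups given FGF19, so the effects of FGF19 and of heparin cannot be told apart. The labels call the arrays of a group biological replicates without saying how the cultures were separated, so p-values measure the spread between these arrays.

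Carriers of this family sit mostly in the inner mitochondrial membrane, where each exchanges or co-transports a small set of metabolites between the matrix and the cytosol. They move ADP and ATP, phosphate, citrate, malate, amino acids, acylcarnitines, iron, glutathione and nucleotide cofactors, so that respiration, fatty acid oxidation, the urea cycle and heme synthesis depend on them. A few relatives have moved to other places: SLC25A17 is found in peroxisomes, and MTCH1, MTCH2 and SLC25A46 in the outer mitochondrial membrane. FGF19 is a hormone-like FGF whose main receptor is FGFR4. TNFα is a cytokine of inflammation and a classical inducer of NFκB.

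Promoter sequence is shown for 5 members whose signal differed with FGF19, so that a reader can see what lies just before the start of genes that fell (MTCH1, SLC25A11, SLC25A3) and genes that rose (SLC25A24, SLC25A44). Each stretch is RefSeq sequence on GRCh38.p14, 5′ to 3′ on the strand of the gene, and ends at the base before the annotated start. Only bases outside every annotated gene are given, which leaves 45 bases for SLC25A11, close to its neighbour, and 250 bases for the others. Capitals mark matches, read on both strands, to a core of GCGC, any base and TGCGC, which is bound by NRF1, a factor known for driving nuclear genes of mitochondrial proteins.
MTCH1, chr6:36986552-36986801, minus strand: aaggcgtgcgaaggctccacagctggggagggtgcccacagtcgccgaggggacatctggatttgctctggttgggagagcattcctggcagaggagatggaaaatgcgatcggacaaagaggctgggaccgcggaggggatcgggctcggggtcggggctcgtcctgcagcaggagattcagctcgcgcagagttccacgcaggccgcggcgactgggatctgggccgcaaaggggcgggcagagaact
SLC25A11, chr17:4940047-4940091, minus strand: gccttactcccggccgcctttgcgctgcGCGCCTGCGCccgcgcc
SLC25A3, chr12:98593436-98593685, plus strand: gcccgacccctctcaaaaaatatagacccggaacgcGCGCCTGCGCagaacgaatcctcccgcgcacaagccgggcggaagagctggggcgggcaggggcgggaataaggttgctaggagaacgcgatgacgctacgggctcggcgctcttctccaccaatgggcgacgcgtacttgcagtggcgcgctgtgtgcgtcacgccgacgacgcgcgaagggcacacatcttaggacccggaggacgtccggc
SLC25A24, chr1:108200344-108200593, minus strand: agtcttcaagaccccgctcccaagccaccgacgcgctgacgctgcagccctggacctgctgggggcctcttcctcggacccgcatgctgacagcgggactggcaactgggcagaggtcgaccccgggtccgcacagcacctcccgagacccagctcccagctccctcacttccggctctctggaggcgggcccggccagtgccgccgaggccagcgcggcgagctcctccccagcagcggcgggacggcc
SLC25A44, chr1:156193854-156194103, plus strand: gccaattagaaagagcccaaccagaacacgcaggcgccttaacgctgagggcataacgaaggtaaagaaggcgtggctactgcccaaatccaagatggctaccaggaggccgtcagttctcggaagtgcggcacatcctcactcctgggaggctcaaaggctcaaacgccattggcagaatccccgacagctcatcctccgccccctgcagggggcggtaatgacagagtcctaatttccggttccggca
The core was present at -17 to -8 from the start of SLC25A11 and at -214 to -205 from that of SLC25A3, and these letters were not in the stretches of the other 3. The 5 stretches do not stand for the family: the core was in 3 of 16 lower and 1 of 5 higher members with promoter windows. MTCH1 had 3 annotated starts and SLC25A24 had 2, of which 1 each is shown.

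With FGF19, more members of the family fell than rose. Values are linear signal from PLIER, which sums up the probes of a probeset, differences are between group means of log2 signal, and a gene was called at a Benjamini-Hochberg adjusted p under 0.05 from limma fitted to all 33297 probesets and all 8 arrays. In FGF19 against Mock, 16 of the 49 members were lower, which is 32.7% of them against 14.1% of all probesets, and 6 were higher, 12.2% against 18.2% of all probesets. In FGF19 + TNFα against TNFα, which shares no array with the first comparison, 13 were lower (26.5%, against 12.9% of all probesets) and 5 higher (10.2%, against 19.4%). The median difference of the members was -0.14 in either comparison, whereas that of all probesets was 0.08 in the first and 0.10 in the second. Quantile normalization brought the medians of all probesets to -0.002 and 0.01 and those of the members to -0.172 and -0.174. All probesets include more dim ones than the family does. Without the dimmest 20% of probesets, 5199 of 26637 were lower and 6204 higher with FGF19 than in Mock, with 16 members lower and 5 higher. Both are larger shares than over all 33297 probesets. Against them the members' excess of lower calls was smaller and their shortfall of higher calls larger. Shares given below are of all probesets, dim ones included.

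**Figure D1:**
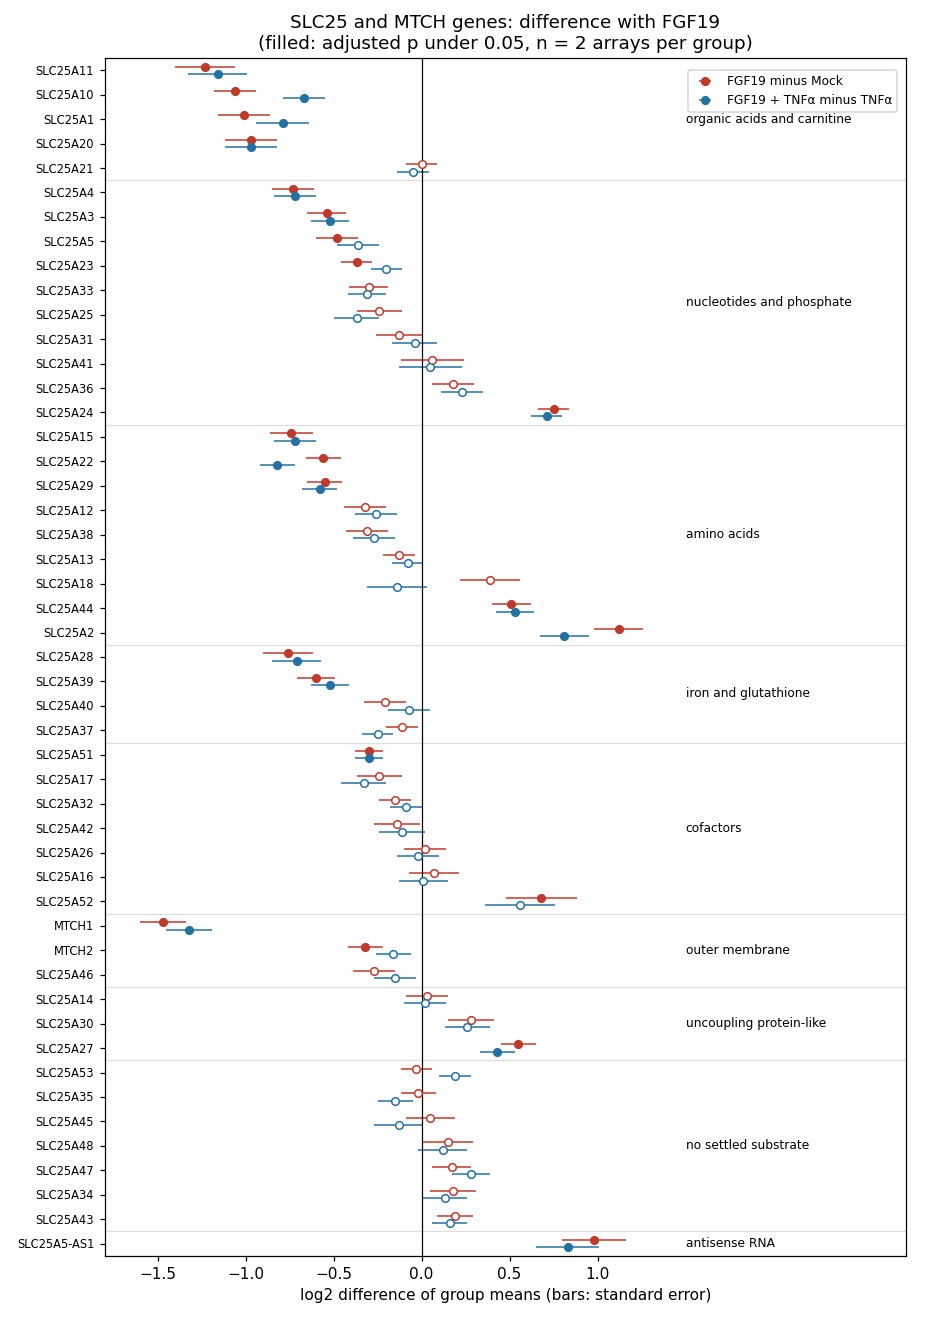
Log2 difference of group means with its standard error for each of the 49 genes, grouped by what the protein carries, for FGF19 minus Mock (red, upper) and FGF19 + TNFα minus TNFα (blue, lower). Filled points passed an adjusted p of 0.05; MTCH1 lies farthest to the left at -1.47 and SLC25A2 farthest to the right at 1.12, both in FGF19 minus Mock.

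The 13 members lower in both comparisons (26.5% of members, against 10.8% of all probesets) were MTCH1, SLC25A1, SLC25A3, SLC25A4, SLC25A10, SLC25A11, SLC25A15, SLC25A20, SLC25A22, SLC25A28, SLC25A29, SLC25A39 and SLC25A51. The 5 members higher in both (10.2%, against 14.0% of all probesets) were SLC25A2, SLC25A24, SLC25A27, SLC25A44 and SLC25A5-AS1. The 2 differences had the same sign for 44 members, 89.8% against 81.1% of all probesets. Across genes, which are not independent replicates, the differences of the 2 comparisons had a Pearson correlation of 0.97 over the 49 members and 0.64 over all probesets. The 2 sets differ in brightness, as only SLC25A31 and SLC25A52 among the members had group means below the arrays' mean 20th percentile. The part of brightness in these correlations was not tested. The 4 arrays given FGF19 lay below the other 4 for 20 members, 40.8% against 18.4% of all probesets, and above them for 8, 16.3% against 25.5%. Calls rested on few arrays. Without either Mock array, fewer members were called lower and fewer higher with FGF19 than in Mock. The second comparison likewise lost calls in both directions without either TNFα array or either FGF19 + TNFα array. Calls over all probesets, lower and higher, were fewer without those arrays too.

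Beside these differences stand 3 properties of the arrays. The median signal was 103.0 to 106.6 on the 4 arrays given FGF19, against 99.54 to 102.4 on the other 4, and the 20th percentile of signal was 34.6 to 36.6, against 30.7 to 31.6, so neither overlapped. Of the 5 epithelial markers, KRT8 and KRT19 were lower with FGF19 than in Mock. KRT18, EPCAM and CDH1 were not called (log2 -0.24 ± 0.11, -0.13 ± 0.16 and 0.23 ± 0.09). The summed signal of the 5 was 6438 and 7118 on FGF19 arrays, against 9310 and 9690 on Mock arrays. Of the 7 measured markers of leukocytes, fibroblasts and endothelium, 1 was higher with FGF19, the T cell gene CD3E at 62.9 and 59.2 on FGF19 arrays, against 41.6 and 40.9 on Mock arrays; the 7 summed to 357 and 398 on FGF19 arrays, against 353 and 355 on Mock arrays. PTPRC, of leukocytes, and DCN, of fibroblasts, stayed below a signal of 33.3, the mean 20th percentile, which is called the floor here. The other measured markers lay above the floor on every array at their brightest probesets. These were CD3E, the fibroblast collagens COL1A1 (102 to 125) and COL1A2 (52.7 to 67.8), and the endothelial PECAM1 (54.5 to 75.8) and VWF (37.1 to 56.0). The part of these properties in the carrier differences was not tested, and in RNA from whole cultures fewer cells and less RNA per cell cannot be told apart. For the cell line itself, the keratin and adhesion genes KRT18, EPCAM and CDH1 were bright, and KLK3 and KLK2, targets of the androgen receptor, lay between 37.4 and 79.4 on every array.

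Of 5 carriers of organic acids and carnitine, 4 were lower in both comparisons, as were 10.8% of all probesets. SLC25A11, the oxoglutarate carrier of the malate-aspartate shuttle, had signals of 195 and 264 on FGF19 arrays, against 553 and 511 on Mock arrays, and of 225 and 190 on FGF19 + TNFα arrays, against 442 and 485 on TNFα arrays. Arrays with and without FGF19 did not overlap, and the falls were 2.34-fold (log2 -1.23 ± 0.17, SE; adjusted p = 0.00414 from limma) and 2.23-fold (-1.16 ± 0.17; adjusted p = 0.00538). SLC25A10, the dicarboxylate carrier, gave 68.6 and 55.7 with FGF19, against 137 and 121 in Mock, and 73.8 and 73.4 with FGF19 + TNFα, against 117 and 118 with TNFα. Its difference was 2.08-fold in the first comparison and 1.60-fold in the second (log2 -1.06 ± 0.12 and -0.67 ± 0.12).

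SLC25A1, which exports citrate for fatty acid synthesis, was at 331 and 417 on FGF19 arrays, against 822 and 678 on Mock arrays, and at 383 and 392 on FGF19 + TNFα arrays, against 705 and 638 on TNFα arrays. It fell 2.01-fold and 1.73-fold (log2 -1.01 ± 0.15 and -0.79 ± 0.15, adjusted p = 0.00518 and 0.0116). SLC25A20, which takes acylcarnitines in for oxidation, was at 70.3 and 95.6 with FGF19, against 162 and 158 in Mock, and at 74.1 and 83.2 with FGF19 + TNFα, against 153 and 154 with TNFα. The 2 SLC25A20 differences were nearly the same, at -0.97 ± 0.15 each. SLC25A21, the oxodicarboxylate carrier of lysine and tryptophan breakdown, was the member of the class that did not pass: its signals lay between 1133 and 1313 on all 8 arrays and its FGF19 difference was 0.00, with a 95% interval of -0.21 to 0.22.

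**Figure D2:**
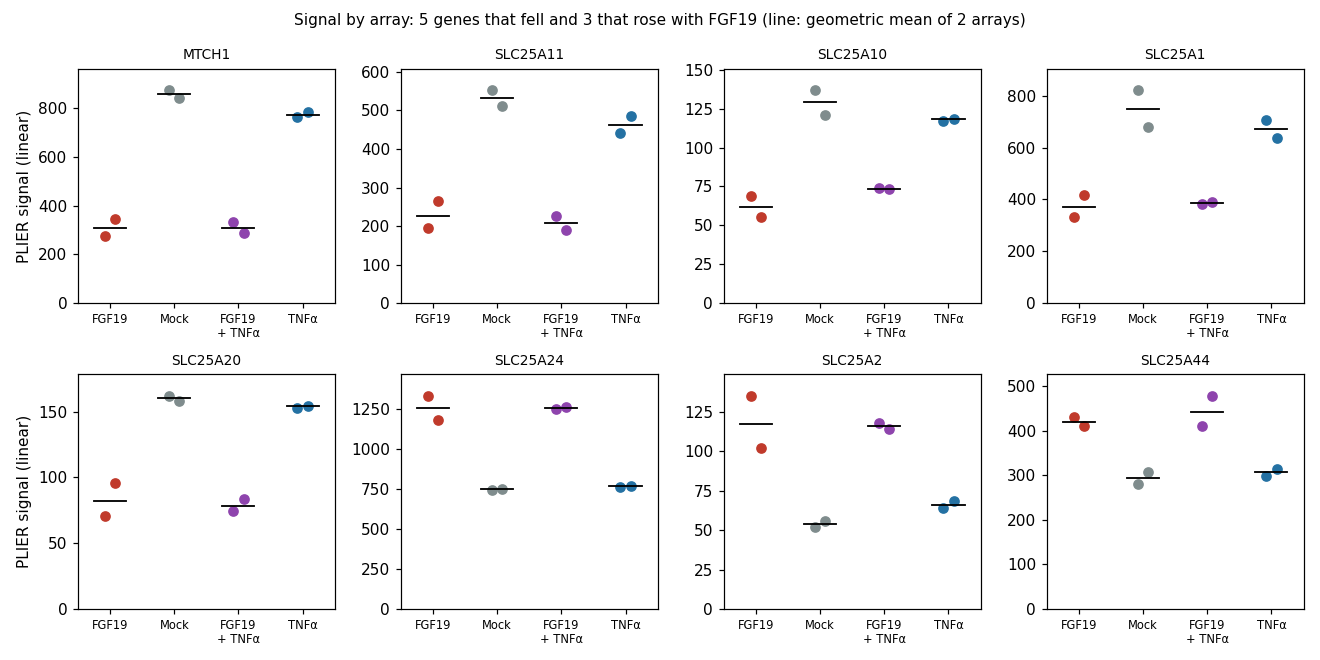
PLIER signal (linear axis from 0) on each of the 8 arrays for 5 genes that fell and 3 that rose with FGF19, with groups in the order FGF19, Mock, FGF19 + TNFα, TNFα; points are arrays and lines geometric means of 2 arrays. In each panel the 4 arrays given FGF19 lie on one side of the 4 arrays without it, as for MTCH1 with 276 to 347 against 762 to 875.

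Among 10 carriers of nucleotides and phosphate, 4 were lower and 1 higher with FGF19 than in Mock (14.1% and 18.2% of all probesets), and 2 lower and 1 higher with FGF19 + TNFα than with TNFα (12.9% and 19.4%). SLC25A4, the ADP/ATP carrier of muscle and heart, gave 159 and 183 on FGF19 arrays, against 289 and 277 on Mock arrays, and 150 and 176 on FGF19 + TNFα arrays, against 266 and 268 on TNFα arrays. It fell 1.66-fold and 1.64-fold (log2 -0.73 ± 0.12 and -0.72 ± 0.12). SLC25A5, the ADP/ATP carrier of dividing cells, was at 1050 and 1311 with FGF19, against 1700 and 1573 in Mock (log2 -0.48 ± 0.12, adjusted p = 0.0291). With FGF19 + TNFα it was at 1212 and 1265, against 1584 and 1602 with TNFα, a difference of -0.36 ± 0.12 that did not pass (adjusted p = 0.0675). SLC25A5 has many near-identical pseudogene copies, so its probes may read more than 1 locus.

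SLC25A3, which brings phosphate to ATP synthase, was bright on every array, at 1494 and 1786 with FGF19, against 2387 and 2363 in Mock, and at 1563 and 1577 with FGF19 + TNFα, against 2226 and 2288 with TNFα. Both differences passed (log2 -0.54 ± 0.11 and -0.52 ± 0.11, adjusted p = 0.0114 and 0.0138). SLC25A31, the ADP/ATP carrier of the testis, lay at the floor, at 27.3 and 31.3 with FGF19, against 32.0 and 31.9 in Mock, and at 32.7 and 30.8 with FGF19 + TNFα, against 29.4 and 36.4 with TNFα, and no fold is given for it.

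The ATP-Mg/phosphate carriers, which set the size of the matrix adenine nucleotide pool, went different ways. SLC25A24 was at 1330 and 1177 on FGF19 arrays, against 742 and 750 on Mock arrays, and at 1250 and 1257 on FGF19 + TNFα arrays, against 761 and 769 on TNFα arrays. It rose 1.68-fold and 1.64-fold (log2 0.75 ± 0.09 and 0.71 ± 0.09, adjusted p = 0.00326 and 0.00405). Its relative SLC25A23 differed by -0.37 ± 0.09 between FGF19 and Mock cells (adjusted p = 0.0207) and not called in the other comparison (-0.20 ± 0.09). SLC25A25 and SLC25A41 were not called in either (-0.24 and 0.06 in the first), nor were the pyrimidine nucleotide carriers SLC25A33 (-0.30) and SLC25A36 (0.18). A dimmer SLC25A33 probeset was called lower in FGF19 + TNFα than in TNFα cells (-0.45 ± 0.13).

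Amino acid carriers were split, with 3 of 9 lower and 2 higher in both comparisons, where 10.8% and 14.0% of all probesets were. The 2 ornithine carriers of the urea cycle moved in opposite directions. SLC25A15 had signals of 199 and 239 with FGF19, against 380 and 347 in Mock, and of 194 and 204 with FGF19 + TNFα, against 314 and 344 with TNFα (log2 -0.74 ± 0.12 and -0.72 ± 0.12). SLC25A2 was at 135 and 102 with FGF19, against 52.0 and 55.8 in Mock, and at 118 and 114 with FGF19 + TNFα, against 63.8 and 68.4 with TNFα. This was the largest rise of the family in FGF19 against Mock, 2.18-fold (log2 1.12 ± 0.14, adjusted p = 0.00368), and 1.76-fold in the other comparison.

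SLC25A44, which imports branched-chain amino acids, was at 430 and 411 on FGF19 arrays, against 281 and 308 on Mock arrays, and at 409 and 478 on FGF19 + TNFα arrays, against 299 and 313 on TNFα arrays. It rose 1.43-fold and 1.44-fold (log2 0.51 ± 0.11 and 0.53 ± 0.11). The glutamate carrier SLC25A22 gave 114 and 117 with FGF19, against 166 and 174 in Mock, and 122 and 129 with FGF19 + TNFα, against 207 and 236 with TNFα. Its differences were -0.56 ± 0.10 and -0.82 ± 0.10, both called. SLC25A29, a carrier of basic amino acids, was at 362 and 357 on FGF19 arrays, against 552 and 502 on Mock arrays, and at 357 and 321 on FGF19 + TNFα arrays, against 493 and 518 on TNFα arrays (-0.55 ± 0.10 and -0.58 ± 0.10).

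The remaining 4 amino acid carriers were not called with FGF19. The aspartate/glutamate carriers of the malate-aspartate shuttle, SLC25A12 and SLC25A13, differed by -0.32 ± 0.12 and -0.13 ± 0.09 from Mock, and SLC25A38, a glycine carrier needed for heme synthesis, by -0.31 ± 0.12. SLC25A18, a second glutamate carrier, was dim, at 53.2 and 62.1 on FGF19 arrays, against 37.7 and 50.9 on Mock arrays.

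Carriers of iron and glutathione held the only member called for TNFα. SLC25A37, mitoferrin-1, brings iron into mitochondria for heme and iron-sulfur clusters and lies on chromosome 8. It was at 1928 and 2015 on TNFα arrays, against 1201 and 1104 on Mock arrays, and at 1601 and 1712 on FGF19 + TNFα arrays, against 1039 and 1095 on FGF19 arrays. The 4 arrays given TNFα lay above the other 4, as they did for 2.09% of all probesets. TNFα against Mock gave a 1.71-fold rise (log2 0.78 ± 0.09, adjusted p = 0.0199), where 1.06% of all probesets were called in either direction and 1 of 49 members, 2.04%. The call was lost without either Mock array (adjusted p = 0.110 and 0.167), either TNFα array (0.0933 and 0.164) or either FGF19 + TNFα array (0.0542 each). In FGF19 + TNFα against FGF19 the difference was 0.63 ± 0.09 and did not pass (adjusted p = 0.0899), and no other member passed where 0.282% of all probesets did; at an unadjusted p under 0.05 there were 2 members, 4.08% against 6.01% of all probesets. TNFα against Mock had 3 members at that level, 6.12% against 12.5%, of which SLC25A22 (0.38 ± 0.10) and SLC25A51 did not pass after adjustment.

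The second SLC25A37 probeset read 1943 and 2047 on TNFα arrays, against 1378 and 1219 on Mock arrays, and 1349 and 1384 on FGF19 + TNFα arrays, against 837 and 977 on FGF19 arrays. Its TNFα difference was 0.62 ± 0.11 (adjusted p = 0.0822), not past the threshold. Unlike the brighter probeset, which gave -0.11 ± 0.09 in FGF19 against Mock and -0.25 ± 0.09 in FGF19 + TNFα against TNFα, it was called lower in both (-0.52 ± 0.11 and -0.55 ± 0.11). The platform annotation ties the brighter probeset to a single mRNA record and the second to the RefSeq transcript.

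**Figure D3:**
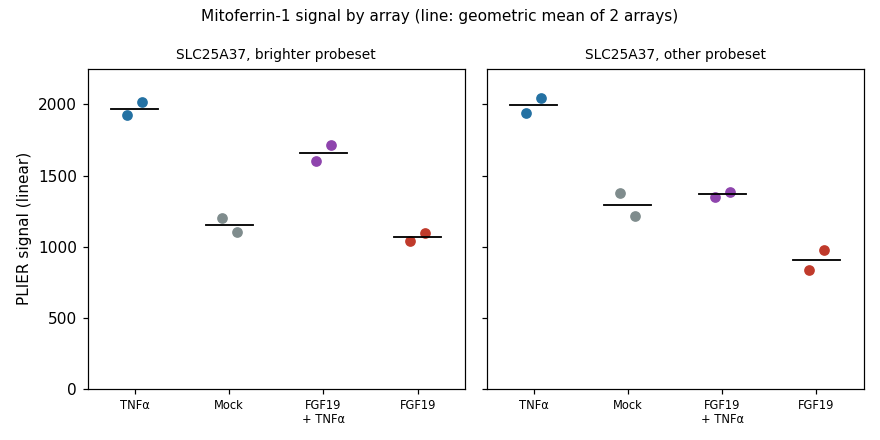
PLIER signal (linear axis from 0) of both probesets of SLC25A37 on each array, with groups in the order TNFα, Mock, FGF19 + TNFα, FGF19; points are arrays and lines geometric means of 2 arrays. TNFα arrays lie above Mock arrays and FGF19 + TNFα arrays above FGF19 arrays at both probesets, and at the second probeset Mock and FGF19 + TNFα arrays overlap.

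Mitoferrin-2, SLC25A28, was at 232 and 305 on FGF19 arrays, against 455 and 443 on Mock arrays, and at 302 and 267 on FGF19 + TNFα arrays, against 470 and 458 on TNFα arrays. It was called lower in both comparisons (-0.76 ± 0.14 and -0.71 ± 0.14). Of the 2 glutathione carriers, SLC25A39 was lower in both, with 634 and 686 on FGF19 arrays, against 1070 and 935 on Mock arrays (-0.60 ± 0.11, adjusted p = 0.0102), and -0.52 ± 0.11 in the second comparison. SLC25A40 was not called, at -0.21 ± 0.12 and -0.07 ± 0.12.

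Of 7 cofactor carriers, 1 was lower and 1 higher with FGF19 than in Mock, near the 14.1% and 18.2% of all probesets. SLC25A51, which brings NAD into mitochondria, was at 416 and 433 with FGF19, against 516 and 525 in Mock, and at 520 and 518 with FGF19 + TNFα, against 625 and 649 with TNFα. Both differences were -0.30 ± 0.08 and passed (adjusted p = 0.0317 and 0.0323), while its TNFα differences, 0.29 ± 0.08 against Mock and 0.29 against FGF19, passed only unadjusted. A dimmer SLC25A51 probeset was not called in FGF19 against Mock (-0.30 ± 0.10, adjusted p = 0.0602) and was called lower in FGF19 + TNFα against TNFα (-0.37 ± 0.10). The near-identical SLC25A52 was at 28.7 and 31.1 with FGF19, against 18.8 and 18.4 in Mock, and at 23.6 and 34.9 with FGF19 + TNFα, against 21.7 and 17.4 with TNFα. All its group means lay below the floor, so no size is given for its difference, and its call in FGF19 against Mock (adjusted p = 0.0443) was lost in 10 of 16 alternatives. Probes may not separate the 2 genes. The peroxisomal carrier SLC25A17, the folate and FAD carrier SLC25A32, the S-adenosylmethionine carrier SLC25A26, the coenzyme A carrier SLC25A42 and SLC25A16, linked to coenzyme A transport, differed by between -0.24 and 0.07 from Mock, and none was called in either comparison.

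In the outer membrane, MTCH1, a carrier relative linked to apoptosis and to insertion of membrane proteins, showed the largest fall of the family in both comparisons. Its signals were 276 and 347 on FGF19 arrays, against 875 and 842 on Mock arrays, and 333 and 289 on FGF19 + TNFα arrays, against 762 and 785 on TNFα arrays. The fall was 2.77-fold (log2 -1.47 ± 0.13, adjusted p = 0.00275) and 2.50-fold (-1.32 ± 0.13, adjusted p = 0.00348), and only 0.7% and 1.2% of all probesets lay lower. MTCH1 is among the genes that the study itself picked out on these arrays, so its direction is not independent evidence. MTCH2, an insertase and receptor for the death protein BID, was at 1463 and 1677 on FGF19 arrays, against 2016 and 1900 on Mock arrays, which just passed (-0.32 ± 0.10, adjusted p = 0.0481). On FGF19 + TNFα arrays it was at 1625 and 1631, against 1799 and 1834 on TNFα arrays, and did not pass (-0.16 ± 0.10, adjusted p = 0.256). SLC25A46, a protein of mitochondrial dynamics, was not called (-0.27 ± 0.12 and -0.15 ± 0.12).

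The members related to uncoupling proteins and those without a settled substrate were mostly not called. SLC25A27, also called UCP4, was at 206 and 208 with FGF19, against 130 and 153 in Mock, and at 175 and 179 with FGF19 + TNFα, against 132 and 131 with TNFα, a rise of 1.47-fold and 1.35-fold that passed in both. SLC25A14 (UCP5) and SLC25A30 were not called, at 0.03 and 0.28. None of the 7 members without a settled substrate passed in either comparison, with differences from Mock of -0.03 to 0.19. Of all probesets, 14.1% were lower and 18.2% higher in the first comparison, and 12.9% and 19.4% in the second. SLC25A5-AS1, transcribed opposite SLC25A5 on chromosome X, was at 62.6 and 72.2 on FGF19 arrays, against 31.2 and 37.3 on Mock arrays, and at 66.7 and 69.7 on FGF19 + TNFα arrays, against 32.6 and 45.3 on TNFα arrays. It was called higher in both comparisons (0.98 ± 0.18 and 0.83 ± 0.18), from Mock levels next to the floor.

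Whether the FGF19 difference depended on TNFα was tested with the interaction. No member and no probeset passed after adjustment, and at an unadjusted p under 0.05 there were 0 members and 5.15% of all probesets. The interval of the interaction was -0.31 to 0.61 for MTCH1, -0.51 to 0.65 for SLC25A11 and -0.34 to 0.27 for SLC25A24, and values inside these bounds are not excluded. The estimates farthest from 0 were -0.53 for SLC25A18 (-1.12 to 0.06) and 0.38 for SLC25A10 (-0.04 to 0.81). Over all 4 groups, the moderated F test at an adjusted p of 0.015, the threshold of the study's methods, called 19 members, 38.8% against 20.9% of all probesets. That count was lower when any 1 array was left out, most of all without a Mock array. Fewer of all probesets passed then too, but without either Mock array the members lost a larger share of their calls than all probesets did.

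Other genes of mitochondrial transport were set beside the family in FGF19 against Mock, each list by its counts, to be read against the 14.1% of all probesets that were lower, the 18.2% that were higher and their median of 0.08. Of 12 measured genes of the route by which carrier proteins are imported, 8 were lower and 1 higher, with a median of -0.98. TIMM10, TIMM8A and TIMM13, small chaperones of the intermembrane space, differed by -1.10 ± 0.11, -0.92 ± 0.10 and -1.18 ± 0.13. TIMM9 and TIMM8B, of the same kind, were not called (-0.11 ± 0.09 and 0.02 ± 0.10). The receptor that recognises incoming carriers, TOMM70, went the other way, at 1153 and 1133 on FGF19 arrays, against 706 and 699 on Mock arrays (0.70 ± 0.08, adjusted p = 0.00287). Of 16 inner membrane transporters outside the family, 9 were lower and 0 higher, with a median of -0.36, among them the ABC transporter ABCB6 (-1.20 ± 0.12), the pyruvate carrier subunit MPC2 (-0.64 ± 0.09) and LETM1, of potassium and calcium exchange (-0.86 ± 0.14). ABCB8 differed by -1.01 ± 0.15 at its brightest probeset, but its 2 dimmer probesets, at -0.33 and -0.03, were not called.

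Of 4 outer membrane channel genes 3 were lower, namely VDAC2 (-0.42 ± 0.08), VDAC3 (-0.61 ± 0.09) and TSPO (-0.68 ± 0.18), while VDAC1 was at -0.04 ± 0.11; a dimmer VDAC2 probeset was not called (-0.21 ± 0.11). Of 15 enzymes of the tricarboxylic acid cycle, which use what the organic acid carriers move, 8 were lower and 0 higher, with a median of -0.37. Examples were IDH2 at -1.45 ± 0.18, SDHD at -1.16 ± 0.11 and SDHA at -0.98 ± 0.14. SDHC was at -1.08 ± 0.18 at its brightest probeset and at -0.06 ± 0.12, not called, at the other. List counts took each gene at its brightest probeset, so ABCB8, VDAC2 and SDHC counted as lower although another of their probesets was not called. Which locus each probeset reads was not tested. UCP1, UCP2 and UCP3, uncoupling proteins of the same family under other symbols, were not called (-0.03, 0.00 and -0.10).

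Of 11 regulators of mitochondrial biogenesis, 2 were higher and 2 lower, shares near those of all probesets (18.2% and 14.1%), with a median of -0.09. GABPA and GABPB1, the subunits of GABP, which also drives nuclear genes of mitochondrial proteins, rose by 1.01 ± 0.09 and 0.59 ± 0.10 on the log2 scale. A dimmer GABPA probeset was also called, with a smaller rise of 0.59 ± 0.11. The mitochondrial DNA factor TFAM (-0.41 ± 0.09) and the nuclear receptor ESRRA (-0.67 ± 0.15) were lower. NRF1, named because its motif is searched here, was at 248 and 260 on FGF19 arrays, against 292 and 296 on Mock arrays, and was not called (-0.21 ± 0.08, adjusted p = 0.102).

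**Figure D4:**
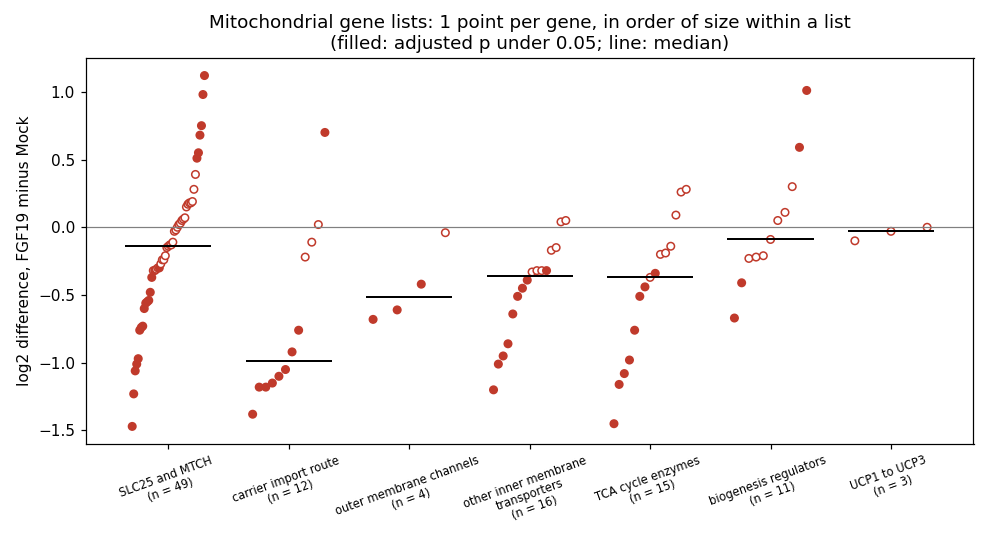
Log2 difference of FGF19 minus Mock for each gene of the family and of 6 related lists, 1 point per gene in order of size, with the median as a line and filled points at an adjusted p under 0.05. The medians run from -0.98 for the carrier import route to -0.03 for UCP1 to UCP3, with the family at -0.14.

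Promoter windows of 250 bases before to 50 after the start were found in RefSeq for 42 of the 49 members, and where a gene had several starts its mean was taken. The share of G and C had a median of 72.9% (60.7% to 81.3%) in the 16 members lower with FGF19, of 62.0% (51.3% to 73.7%) in 5 of the 6 higher members and of 64.0% (46.0% to 75.3%) in 21 of the 27 not called. The median over all 35116 windows was 58.7%. SLC25A10, SLC25A1, SLC25A15 and SLC25A29 had the richest windows, at 80.0% to 81.3%, and all 4 were lower with FGF19, while SLC25A11, whose short stretch is printed above, had 60.7%. The part of base composition in the differences was not tested.

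**Figure D5:**
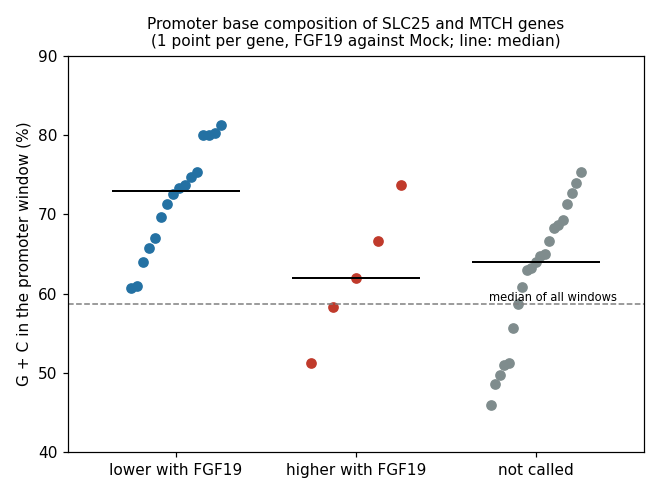
Percentage of G and C in the promoter window (1 point per gene, mean over its starts) for members lower with FGF19 than Mock, higher, and not called, with medians as lines at 72.9%, 62.0% and 64.0%; the dashed line is the median of all windows, 58.7%. The axis runs from 40% to 90%.

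The NRF1 core (GCGC, any base, TGCGC) was in a window of 3 of the 16 lower members (SLC25A3, SLC25A11 and SLC25A51), 1 of the 5 higher members (SLC25A52) and 1 of the 21 not called (SLC25A31), against 5.78% of all windows. The E-box-like sequence CACGTG, which reads the same on both strands and is not contained in the core, was in 4, 0 and 7 of them, against 7.26% of all windows. A member was counted where any of its windows matched, whereas both shares are of single windows, so a gene with several starts had more openings for a match. A match describes the letters in the window and does not show that a factor binds there.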

How the data were processed

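Total RNA of 8 DU145 cultures, 2 a group, was hybridised to Affymetrix Human Gene ST arrays. The authors deposited linear signal intensity for 33297 probesets, made per the labels with Affymetrix Expression Console and PLIER; tool versions and normalization are not stated there. The study's supplement names the array maker's annotation release na30, on hg19. Of the probesets, 19460 had 1 platform symbol, 1754 several and 12083 none. Each of 240 zero values was replaced by 0.0100, its array's lowest signal above 0, before log2, with no further normalization, and no count of molecules lies behind a signal, so the number of arrays limits the precision. Group means of all 8 arrays were modelled with limma 3.58.1 (R 4.3.3), and the steps were tested on simulated data.

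Members and gene lists were chosen with earlier results of these data known. Signals of different probesets are not comparable as RNA levels. Values of every array were given for members called for TNFα, the 6 largest rises and 8 largest falls called with FGF19, MTCH1, MTCH2, the ADP/ATP and phosphate carriers, and the 3 brightest and 3 dimmest members in Mock; list genes were at most 4 a list, by smallest p. Genes outside this rule were chosen after their values were seen. No fold was given where both group means lay under the floor, the mean 20th percentile of log2 signal (5.06). Promoters came from RefSeq on GRCh38.p14. Protein sequences were not used here. The alternatives were other normalizations, an offset of 16, removal of the dimmest 20% of probesets, other variance estimates, a fit of only the groups compared, the mean of a gene's probesets, the replicate number as a block, and each array left out in turn. Replicate arrays correlated at 0.967 to 0.980.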

Additional observations from a re-analysis of the deposited data

How the results depend on the processing

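No difference called for a member turned direction under any alternative run, but many alternatives could not have turned a direction. Other variance estimates, a fit of only the groups compared, the replicate block and removal of dim probesets leave the difference of group means unchanged. So does leaving out an array of a group not compared. The arrays of the compared groups did not overlap for any called difference, so leaving out an array of these could not turn its sign either. Of 41 called differences, 17 were called under every alternative run. In FGF19 against Mock these were 10 (MTCH1, SLC25A1, SLC25A2, SLC25A4, SLC25A10, SLC25A11, SLC25A15, SLC25A20, SLC25A24 and SLC25A27). In FGF19 + TNFα against TNFα there were 7 (MTCH1, SLC25A4, SLC25A11, SLC25A15, SLC25A20, SLC25A22 and SLC25A24). In FGF19 against Mock the call was lost in 12 of 17 alternatives for MTCH2, in 10 of 16 for SLC25A52, in 9 of 17 for SLC25A5 and in 8 of 17 for SLC25A51. Over the alternatives that kept all arrays, 11 to 17 members were lower and 5 or 6 higher with FGF19 than in Mock, and 13 to 15 lower and 4 or 5 higher with FGF19 + TNFα than with TNFα. Of all probesets (33297, or 26637 without dim ones), 3001 to 5351 were lower and 4088 to 6414 higher in the first comparison. In the second, 3337 to 4971 were lower and 5024 to 6889 higher. SLC25A37 was lost for TNFα against Mock when only the groups compared were fitted (0 members) and was called for FGF19 + TNFα against FGF19 with 16 added, without dim probesets or with a trended, robust prior (1 member each). Without moderation of the variances, the F test called 5 of the 49 members and 2474 of 33297 probesets.

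Leaving out each array in turn gave 3 to 6 members higher (3 without Mock replicate 1) and 8 to 18 lower in FGF19 against Mock. In FGF19 + TNFα against TNFα it gave 1 to 5 higher (1 without TNFα replicate 1 or FGF19 + TNFα replicate 2, 3 without TNFα replicate 2) and 6 to 15 lower. TNFα against Mock gave 0 to 1, FGF19 + TNFα against FGF19 and the interaction 0 to 0, and the F test 1 to 14 (1 without either Mock array). A group left with 1 array was assumed to vary like the others. In each comparison of groups and in the F test, fewer of all probesets were called as well when an array of a compared group was left out.

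Replicate numbers were not taken as pairs: deviations of same-numbered arrays correlated at -0.020 to 0.195 between groups over all probesets and at -0.024 to 0.327 over the brighter ones, with FGF19 and FGF19 + TNFα highest, and at most 0.019 where Mock was 1 of the groups. With the number as a replicate block, 5 members were higher and 16 lower with FGF19 than Mock, 5 and 13 with FGF19 + TNFα than TNFα, 1 was called for TNFα against Mock, 0 for FGF19 + TNFα against FGF19, 0 for the interaction and 12 by the F test. With 2 arrays a group and dim probesets near the floor, small differences could not be seen.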
